A study of Rattus norvegicus with 23 samples.

Results

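Interferon-stimulated genes were examined in the lungs of elderly rats after inhalation of a titanium dioxide (TiO2) nanoparticle aerosol. The list held 49 genes that are widely known to be switched on by interferons, among them the antiviral GTPase Mx1 and the transcription factor Irf7, which served as its markers. Members were found by gene name among the non-control probes of the array. Of the 49 genes, 48 were on the array, and all 48 passed the filter on dim probes, out of 23030 genes tested. Samd9l was not found under that name.

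All animals were male F344 rats, 19 months old when the inhalation began, and the RNA came from the accessory lobe of the lung. Exposed rats breathed the TiO2 aerosol at 10 mg/m3 by nose only, for 6 hours per day, 5 days per week, over 4 weeks, and control rats breathed filtered air. Lungs were taken on the day exposure ended (D0) or 28 days later (D28), which gave 6 controls and 5 exposed animals at the former time and 6 of either kind at the latter. Each rat had 1 single-colour array, so the spread between replicates takes in both the animals and their arrays, which cannot be told apart.

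Interferons are cytokines, and those of type I are released by cells that sense foreign nucleic acid. Type I interferons act through the receptor chains Ifnar1 and Ifnar2 and a complex that includes Stat2 and Irf9, which binds the interferon-stimulated response element in promoters, whereas interferon gamma (Ifng), a product of T and NK cells, acts through a gamma-activated site. The genes they switch on make proteins that block viral replication in the airway epithelium and macrophages, sense viral RNA, or restrain the response itself. The lobe is a mix of cells, so fewer cells of a type and less RNA per cell cannot be told apart in any value below.

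Promoters of the members were searched for the core letters of the interferon-stimulated response element, which are GAAA, any 2 bases and GAAA again, on both strands (TTTC, any 2 bases and TTTC where they lie on the other strand). RefSeq promoter windows of the GRCr8 assembly, from 250 bases before to 50 bases after a gene's start, covered 39 of the 49 members, and 26 of the 39 (66.7%) held these letters, against 4.12% of all 27457 gene symbols with a window. The letters TTCNNNGAA of the gamma-activated site, which read alike on both strands, were held by 11 of the 39 (28.2%) and by 9.39% of all symbols. Below are stretches around the match, shown for Irf7, for Oas1i and Ifit3, which had the smallest p values with Usp18 when control rats of D28 and D0 were compared (only Oas1i was called), and for Gbp2 and Gbp5, which set 1 exposed rat apart. Each stretch reads 5′ to 3′ along the gene's strand, and capitals mark the matched letters.
Irf7, chr1:205800063-205800112, minus strand: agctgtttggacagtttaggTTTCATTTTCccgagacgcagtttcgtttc
Ifit3, chr1:241527262-241527311, plus strand: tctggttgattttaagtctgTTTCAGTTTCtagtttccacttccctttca
Oas1i, chr12:41285176-41285225, plus strand: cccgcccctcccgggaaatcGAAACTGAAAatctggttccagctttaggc
Gbp2, chr2:234005676-234005725, plus strand: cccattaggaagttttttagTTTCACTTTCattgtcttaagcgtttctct
Gbp5, chr2:233910923-233910972, plus strand: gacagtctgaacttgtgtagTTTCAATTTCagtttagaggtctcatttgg
The match began 69 bases before the start of Irf7, 44 before Ifit3, 30 before Oas1i, 31 before Gbp2 and 56 before Gbp5. The Oas1i match is the latter of 2 that overlap. Neither motif was found in the windows of Mx1 and Stat2, which says only that these letters are not in those windows. Members with and without the response element letters had median exposed minus control differences of 0.05 and 0.13 on the log2 scale on D0 (26 and 12 members), and 0.07 and 0.08 on D28.

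All levels below are quantile normalised log2 array signals, and all differences are log2 differences with their fold change (FC). All members but Ifit1, Oasl and Oas3 had at least 1 probe well above background on all 23 arrays, and none was saturated. A member with several probes is their mean, and that mean takes in 1 probe of Gbp4 that was well above background on no array, 1 of Rsad2 on 13, 1 of Ddx58 on 16, and 1 each of Parp12 and Dtx3l on 22. Ifit1 was well above background on 1 of the 23 arrays, so no fold is given for it. Oasl was well above background on 19 arrays, and on only 2 of the 6 from control rats on D28. On each array, 69.5 to 77.9% of spots were well above background, and the 75th percentile of the raw signal ran from 1383 to 3470. The arrays lay on 5 slides of 1 to 7 arrays. All 7 type II pneumocyte markers listed were well above background on every array. Of the 4 cardiac muscle markers tested, 3 were so on every array, and the atrial marker Nppa was on none.

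On D0, no member was differentially expressed between exposed and control rats. A call needed a Benjamini-Hochberg adjusted p below 0.05 in limma over all genes and an FC of at least 1.5, which 0 of the 48 members met, against 1.79% of all genes. The members sat slightly higher in exposed rats, with 38 of 48 above 0 (49.9% of all genes) and a median difference of 0.11 (all genes -0.00070). Without exposed replicate 4, the median was -0.0080 and 23 of 48 were above 0. That rat was set aside because it was high for these same genes, so the values without it are a description and carry no test. Single differences ran from -0.22 for Gbp2 to 0.43 for Zbp1, a sensor of nucleic acid in an unusual fold. At an unadjusted p below 0.05, 2 members were higher (Usp18 and Trim25) and none lower, against 5.61% and 6.34% of all genes. No member was without overlap between the groups, a pattern shown by 1.94% of all genes upwards and 2.37% downwards. For 34 of the 48 members (70.8%) the 95% interval of the difference lay within 1.5-fold in both directions, as it did for 50.4% of all genes.

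On D28, 1 of the 48 members was over-expressed, against 0.486% of all genes called higher and 0.269% called lower. It was Usp18, the protease that strips the small protein Isg15 from its targets and dampens signalling at the type I receptor. The median of the members was 0.095 (all genes -0.0055), and 37 of the 48 were above 0 (48.9% of all genes), with single differences from -0.21 for Oas3 to 0.61 for Usp18 among the members well above background in all control rats. Oasl, at 0.79, was set against control rats of which only 2 of 6 were well above background. At an unadjusted p below 0.05, 5 members were higher (Usp18, Irf7, Mx1, Mx2 and Oas1i) and none was lower, against 4.82% and 6.18% of all genes. The 95% interval lay within 1.5-fold for 33 members (68.8%; 52.6% of all genes).

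**Figure D1:**
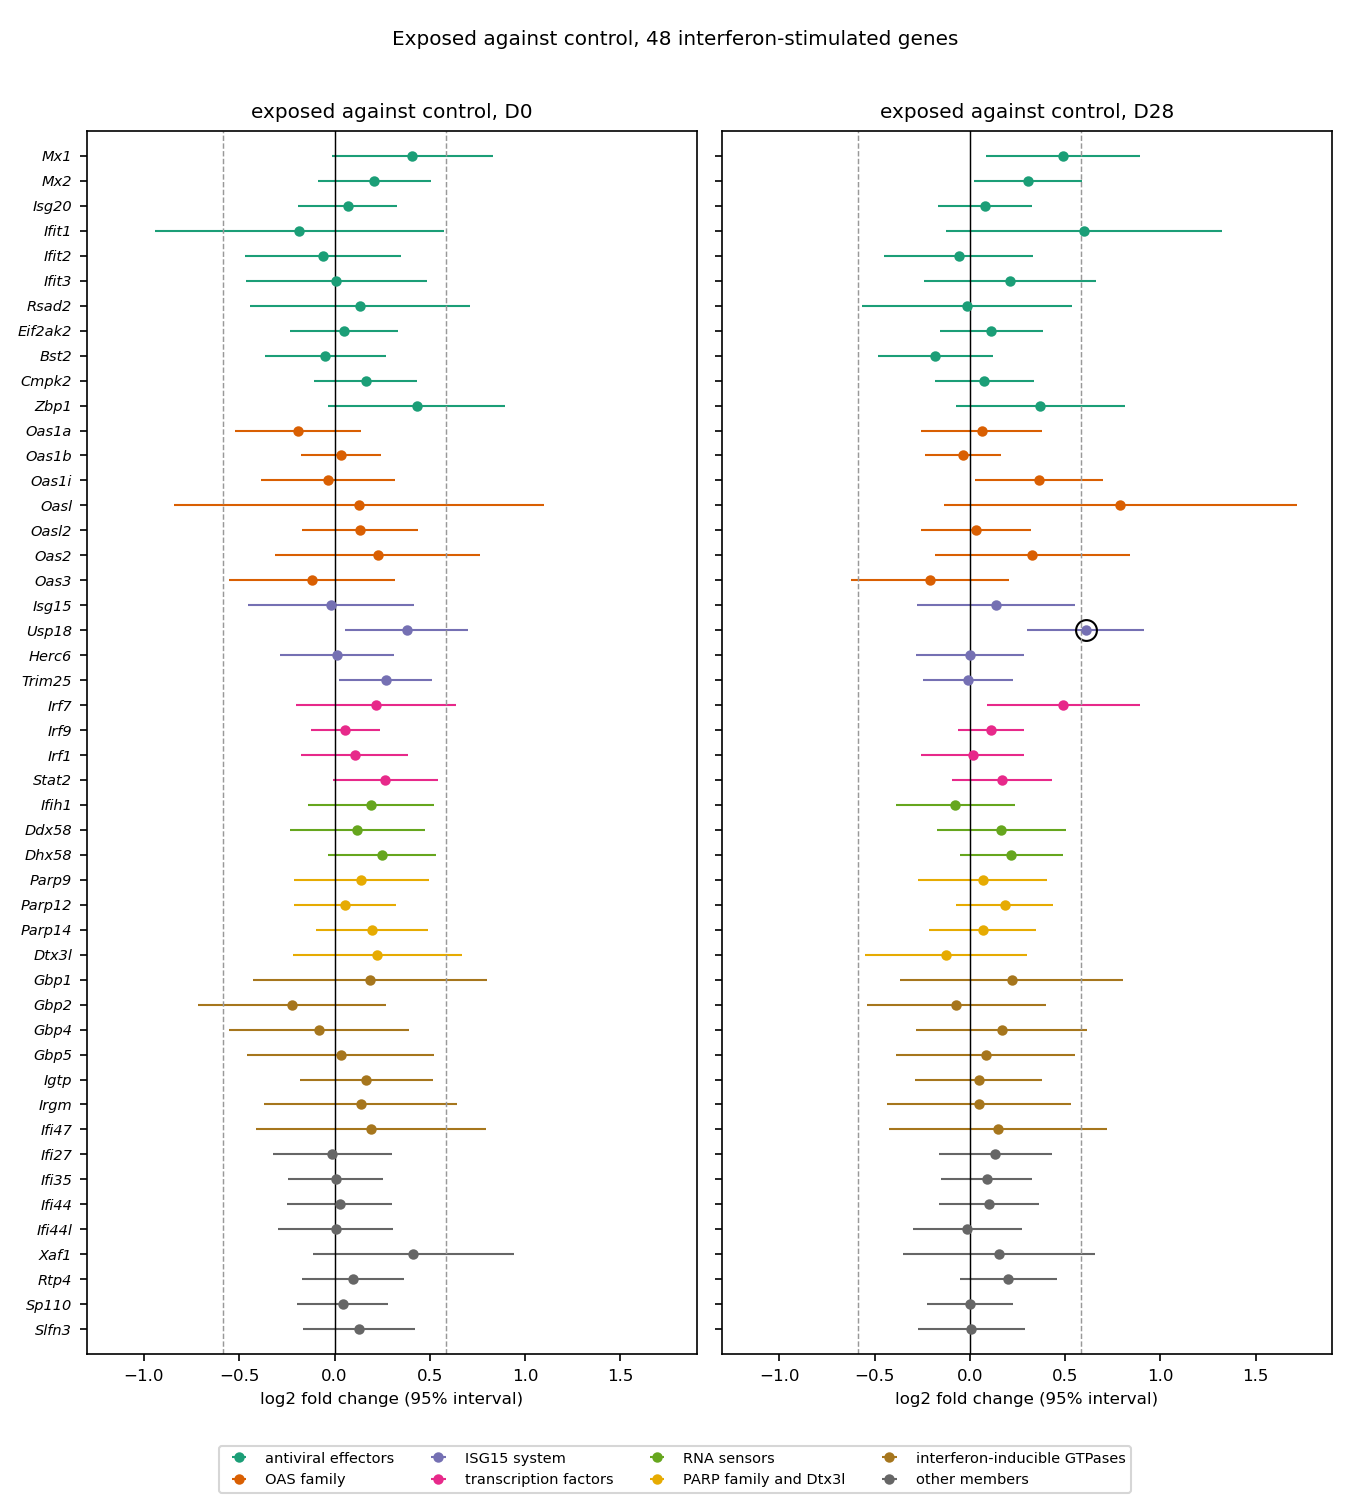
Exposed minus control log2 difference of the 48 tested members on D0 and D28 (points, coloured by role) with the 95% interval of the limma fit (bars); dashed lines mark 1.5-fold in either direction and the circle marks the call. Most points lie a little to the right of 0 on both days, most intervals cross 0, only Usp18 on D28 is circled, and Ifit1 is drawn though well above background on 1 array only.

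Mx1, a GTPase that traps viral nucleocapsids, is the antiviral effector that marks the list. On D0, control rats had levels of 11.07, 11.32 and 11.49 (lowest, median and highest), and the 5 exposed rats had 11.55, 11.54, 11.92, 12.32 and 11.10. All exposed rats but replicate 5 were above every control rat. The difference was 0.41 ± 0.20 (SE; FC 1.33, limma adjusted p = 0.457), with a 95% interval from -0.016 to 0.83. On D28, control rats ran from 11.05 through a median of 11.21 to 11.65, and exposed rats from 11.20 through 11.66 to 12.59. The groups overlapped, and the difference of 0.49 ± 0.19 (FC 1.40, limma adjusted p = 0.301) did not pass the test. The probe for Mx1 lies at chr11:37438580-37438639 on the minus strand of rn4, the build that the array files give.

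The other 10 antiviral effectors tested had no call on either day, and the group's median difference was 0.068 on D0 and 0.11 on D28. Zbp1 differed by 0.43 ± 0.22 on D0 and 0.37 ± 0.21 on D28 (limma adjusted p = 0.490 and 0.575). Mx2, a relative of Mx1, differed by 0.21 ± 0.14 and 0.31 ± 0.14 (limma adjusted p = 0.692 and 0.389). Its 2 probes were unlike each other, since the bright one (mean level 15.58) differed by -0.031 and 0.14 and the dim one (6.31) by 0.45 and 0.48. Ifit3, which binds viral RNA together with Ifit1, differed by 0.0087 ± 0.23 on D0 and 0.21 ± 0.22 on D28. Levels of Ifit1 itself ran from 1.73 to 2.87 on all arrays but those of exposed replicates 4 and 6 on D28, at 3.54 and 4.52, of which only the latter was well above background.

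Among the transcription factors, Irf7, which drives the amplifying wave of type I interferon and is the other marker of the list, differed more on D28 than on D0 in its mean, though this change was not called. On D0, control rats ran from 10.79 through a median of 11.52 to 11.77, and the exposed rats had 11.61, 11.43, 11.79, 12.10 and 11.31. The exposed levels lay mostly inside the control range, with a difference of 0.22 ± 0.20 (FC 1.16, limma adjusted p = 0.847). On D28, control rats ran from 10.60 through 11.17 to 11.33, and exposed rats from 11.28 through 11.46 to 12.32. The groups barely overlapped, the highest level being that of exposed replicate 4, and the difference was 0.49 ± 0.19 (FC 1.40, limma adjusted p = 0.296). The Irf7 probe lies at chr1:201456889-201456948 on the minus strand of rn4.

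Stat2, a transcription factor of type I signalling, had the third smallest p of the members on D0. Control rats ran from 11.96 through 12.15 to 12.27, and the exposed rats had 12.33, 12.23, 12.58, 12.81 and 12.07. The groups overlapped, and the difference was 0.27 ± 0.13 (FC 1.20, limma adjusted p = 0.449). On D28 it was 0.17 ± 0.13. Irf9, which gives that complex its DNA contact, differed by 0.056 ± 0.088 and 0.11 ± 0.084, and Irf1, the factor most tied to interferon gamma, by 0.11 ± 0.14 and 0.015 ± 0.13.

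In the Isg15 system, Usp18 moved the most. On D0, control rats ran from 8.47 through 8.97 to 9.14, and the exposed rats had 9.28, 9.19, 9.17, 9.78 and 8.89. All exposed rats but replicate 5 were above the controls, and the difference was 0.38 ± 0.16 (FC 1.30, limma adjusted p = 0.278). On D28, control rats ran from 8.11 through 8.48 to 8.70, and exposed rats from 8.81 through 8.99 to 9.40. The groups did not overlap, which was so for no other member and for 0.677% of all genes upwards. The difference was 0.61 ± 0.15 (FC 1.52, 95% interval 0.30 to 0.92, limma adjusted p = 0.0441). Both the FC and the adjusted p lay close to their limits, and the call was lost in 16 of the 23 fits that each left out 1 array. Control rats themselves were lower on D28 than on D0, by means of 8.45 ± 0.22 and 8.88 ± 0.25 (SD, n = 6 each), a difference that did not pass (limma adjusted p = 0.200).

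Trim25, a ubiquitin ligase that arms the RNA sensor Ddx58, had 9.15, 9.23 and 9.41 in control rats on D0 (lowest, median and highest) and 9.77, 9.38, 9.52, 9.45 and 9.47 in the exposed animals. Only replicate 2 of the exposed rats fell inside the control range, and the difference was 0.27 ± 0.12 (limma adjusted p = 0.340). On D28, both groups had a median of 9.49 and the difference was -0.0092 ± 0.11. Isg15, the tag itself, differed by -0.018 ± 0.21 and 0.14 ± 0.20, and Herc6, the ligase that attaches it in rodents, by 0.013 ± 0.14 and -0.00033 ± 0.14.

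**Figure D2:**
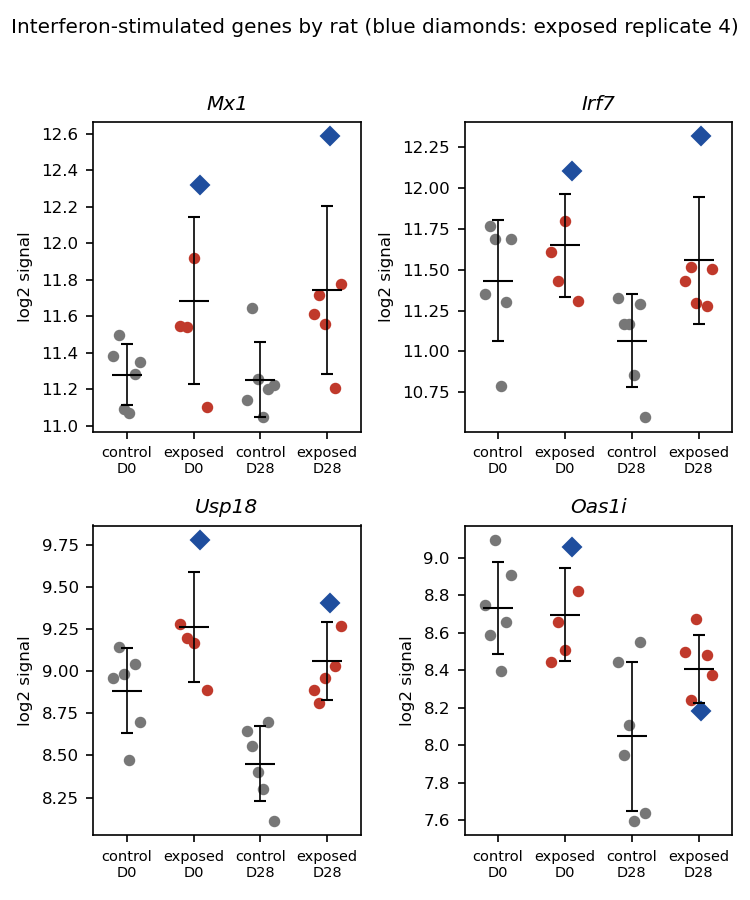
Log2 quantile normalised signal of Mx1, Irf7, Usp18 and Oas1i in every rat by group (points), with the group mean and SD (bars); diamonds mark replicate 4 of the exposed rats on each day. Usp18 on D28 is the only panel pair whose exposed rats all lie above the control rats of the same day, and the diamonds are the highest exposed points for Mx1, Irf7 and Usp18.

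The OAS family makes the messenger that activates an RNA-cleaving enzyme, and its 7 members had medians of 0.034 on D0 and 0.063 on D28, with no call. Oas1i had levels of 8.40, 8.70 and 9.10 in control rats on D0 and 8.44, 8.66, 8.51, 9.06 and 8.82 in exposed rats, which overlapped fully (difference -0.036 ± 0.17). On D28, control rats ran from 7.59 through 8.03 to 8.55 and exposed rats from 8.18 through 8.43 to 8.67. The groups overlapped, and the difference was 0.36 ± 0.16 (limma adjusted p = 0.395). Oas2 differed by 0.23 ± 0.26 and 0.33 ± 0.25, and Oas3 by -0.12 ± 0.21 and -0.21 ± 0.20. Oas1a, Oas1b and Oas1i are near copies of one another, so their probes may share transcripts, which was not tested.

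The sensors of viral RNA Ifih1, Ddx58 and Dhx58 had a median of 0.19 on D0 and 0.17 on D28, led by Dhx58 (0.25 ± 0.14 and 0.22 ± 0.13). Parp9, Parp12, Parp14 and Dtx3l, which modify proteins with ADP-ribose and ubiquitin, had medians of 0.17 and 0.068. Among the remaining 8 members, Xaf1, which favours cell death, differed most on D0 (0.41 ± 0.25) and Rtp4, a chaperone of receptors, on D28 (0.20 ± 0.12), around medians of 0.035 and 0.095. For Xaf1, exposed replicate 1 was at 8.07 on D0 and the other exposed rats at 6.52, 6.42, 7.12 and 6.48, against 6.25 to 6.78 in control rats. The 7 interferon-inducible GTPases, which attack the membranes around microbes inside cells, had medians of 0.14 and 0.083. Without exposed replicate 4, the D0 medians were -0.20 for the GTPases (6 of 7 below 0), 0.059 for the sensors, 0.017 for the PARP group and -0.047 for the remaining 8. No member of these 4 groups was called on either day.

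The effect of exposure on D28 was then set against that on D0. No member differed between the days (0 of 48 called, against 0.0304% of all genes), and none did at an unadjusted p below 0.05, against 1.55% of all genes upwards and 1.89% downwards. The median of the difference between the effects was 0.0062, with 25 of 48 above 0 (49.6% of all genes). The smallest p belonged to Oas1i (0.40 ± 0.23) and the next to Trim25 (-0.28 ± 0.16), and for Mx1 and Irf7 the effects differed by 0.082 ± 0.28 and 0.27 ± 0.28 (limma adjusted p = 0.9999 for each of the 4). These intervals are wide, and the 2 effects rest on separate rats.

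Control rats on D28 were also compared with control rats on D0, 28 days younger. Of the members, 32 were lower and 16 higher on D28, with a median of -0.073 (all genes -0.0059; 48.9% of all genes were higher). Oas1i was called, 1 of 48, against 0.221% of all genes called lower and 0.386% higher. It fell by 0.69 ± 0.16 on the log2 scale (FC 0.621, limma adjusted p = 0.0446), though its ranges overlapped, and this call too was lost in 16 of 23 fits without 1 array. The lowest Oas1i level on D28, 7.59, was that of control replicate 4. That array lay alone on its slide, was the only one read with the later software version, and had the highest raw signal (75th percentile 3470). Its slide and software cannot be told apart from the rat. Control replicate 6, on a shared slide, was at 7.64, and the call was lost without either array. The only member without overlap was Gbp5, named for that reason, at 10.35 to 10.64 on D0 and 9.96 to 10.30 on D28 (limma adjusted p = 0.649), where 0.599% of all genes lay apart downwards and 1.02% upwards. Ifit3 ran from 9.42 through 9.82 to 10.68 on D0 and from 8.55 through 9.50 to 9.80 on D28, and its difference of -0.58 ± 0.22 did not pass (limma adjusted p = 0.245). At an unadjusted p below 0.05, 5 members were lower (Oas1i, Usp18, Ifit3, Oas1a and Oasl, the last with 2 of 6 arrays well above background on D28) and 1, Trim25, was higher, against 6.74% and 6.52% of all genes. Mx1 differed by -0.026 ± 0.19 and Irf7 by -0.36 ± 0.19.

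The members moved together from rat to rat. After the mean of its group was taken off each value, the median correlation over the 1128 pairs of members was 0.35 across the 23 arrays, and 84.9% of pairs were above 0. A member's correlation with the mean of the other members had a median of 0.62, a description over arrays that also share slides. The correlation of all genes with the mean of the members had a median of 0.0099, which does not show how other sets of genes move together. Among the members, the correlation with the others was highest for Oasl2 (0.87), Usp18 (0.86) and Irf7 (0.85), and lowest for Oas3 (0.023), Rsad2 (0.14) and Oas2 (0.16). Mx1 and Irf7 correlated at 0.73. Without replicate 4 of both exposed groups, the median over pairs was 0.18, 67.7% were above 0, and Mx1 and Irf7 correlated at 0.48.

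**Figure D3:**
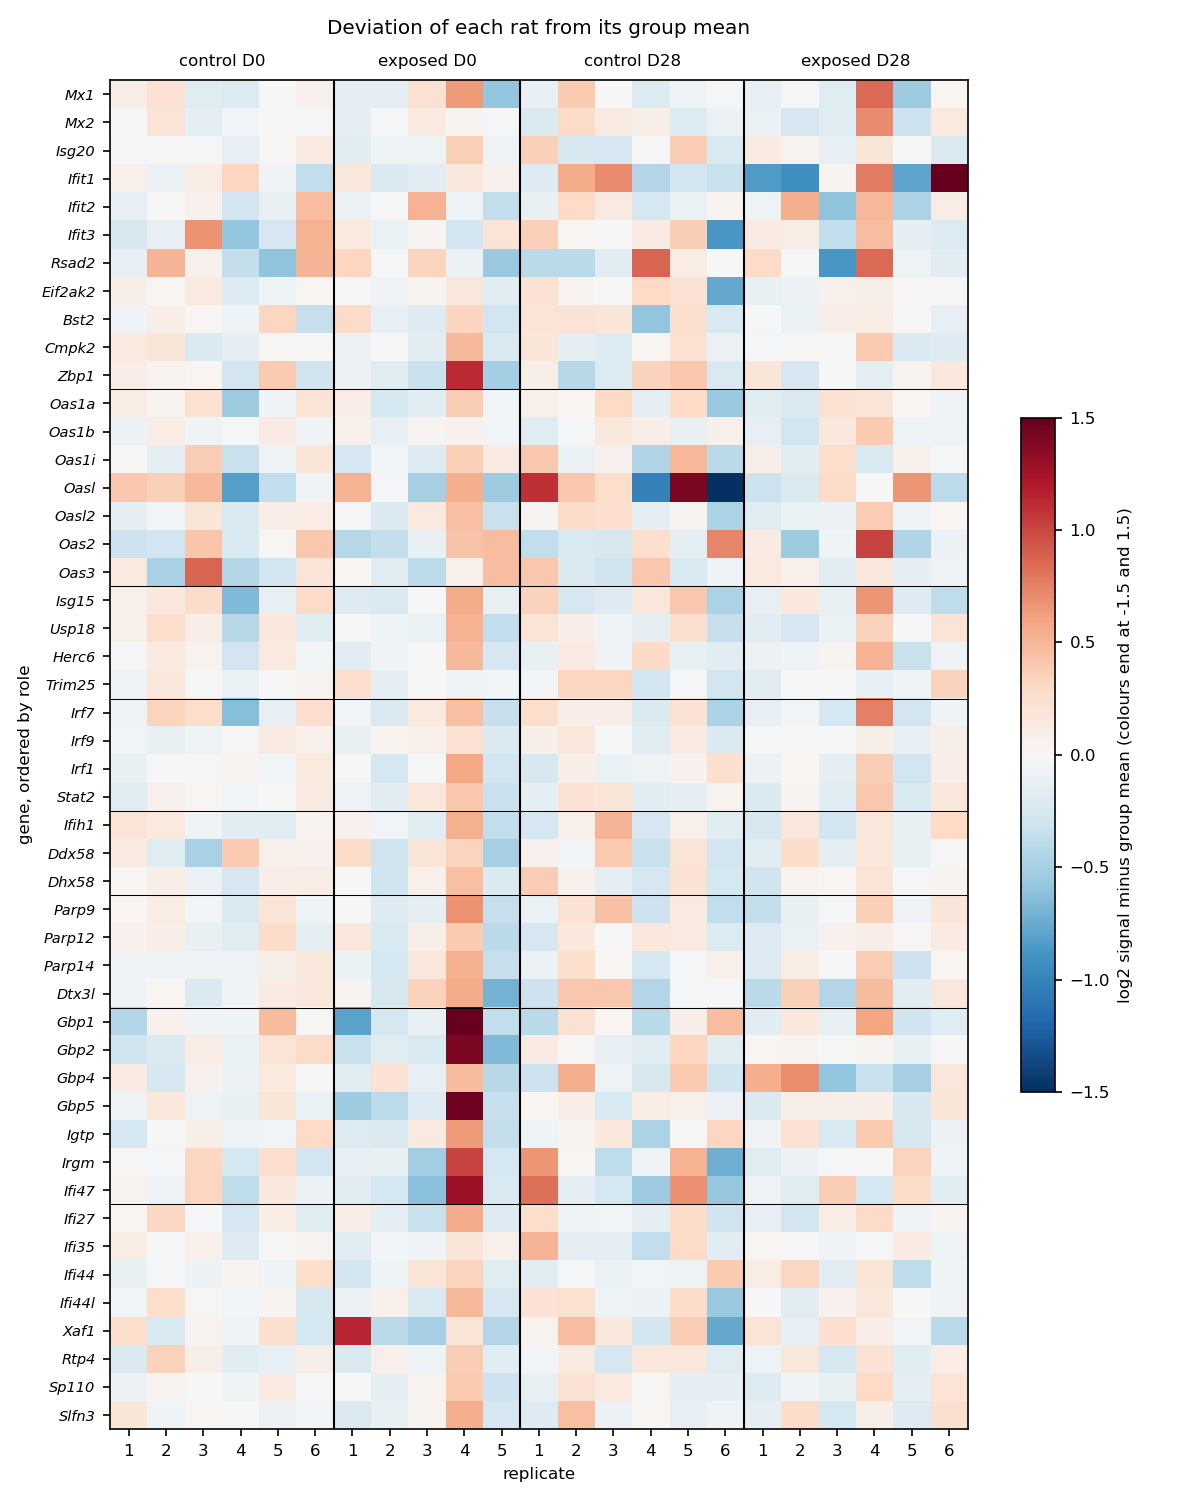
Log2 signal of the 48 tested members (rows, by role) in each of the 23 rats (columns, by group) minus the mean of the rat's own group; colours end at 1.5 in either direction. The column of exposed replicate 4 on D0 is high in most rows, most of all in the GTPases, and that of exposed replicate 4 on D28 is high in many antiviral effectors but in few GTPases.

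Exposed replicate 4 on D0 stood apart. It was the highest of the 5 exposed rats for 39 of the 48 members, against 22.3% of all genes, and the highest of all 23 rats for 28. Its mean over the members was 9.96, where the other exposed rats had 9.45, 9.35, 9.44 and 9.25 and the controls 9.20 to 9.46. The rise was greatest in the GTPases, all 7 of which were highest in this rat, by a median of 1.60 over the mean of the other 4. Guanylate-binding protein Gbp2 was at 14.30 against 12.23 to 12.71, Gbp5 at 11.96 against 9.96 to 10.30, and Gbp1 at 8.49 against 6.13 to 6.84. The 9 members for which it was not the highest were Mx2, Ifit2, Ifit3, Rsad2, Oas1b, Oas2, Oas3, Trim25 and Xaf1, and for Ifit3, at 9.73, it was the lowest.

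Without this rat, 49.1% of all genes were above 0 on D0. The other 4 exposed rats, at 12.23 to 12.71, were all below the control rats, at 12.82 to 13.40, for Gbp2, and for Gbp5 they were at 9.96 to 10.30 against 10.35 to 10.64. Such a lack of overlap was then shown by 2.79% of all genes downwards and 2.88% upwards. The rat was set aside because it was high for these same genes, so their values without it are a description and carry no test. With all 5 exposed rats, Gbp2 differed by -0.22 ± 0.24 (limma adjusted p = 0.886). Gbp2 and Gbp5 both lie on chromosome 2, with probes at chr2:240541001-240541060 and chr2:240447691-240447750 on the plus strand of rn4.

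Other genes were high in the same rat. Ifng was at 5.41 against 1.74 to 3.31 in the other exposed rats, and was well above background on this array alone of the 23. The chemokine Cxcl9, a classic target of interferon gamma, was at 11.58 against 9.18 to 9.66, and the tryptophan-degrading enzyme Ido1 at 9.46 against 2.15 to 4.02. Ido1 was well above background on a minority of arrays, some of them from control rats of D0. Of the 11 T and NK cell markers, 9 were highest in this rat, and their mean was 10.15, against 8.66 to 9.36 in the other exposed rats and 9.13 to 9.87 in the control rats. All 11 were well above background on every array. Their part in the level of the members was not tested.

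Exposed replicate 4 on D28 was also high in many members, most of them shared with exposed replicate 4 on D0, but in few GTPases. It was the highest of the 6 exposed rats for 28 of 48 members, against 19.5% of all genes, and for 8 of the 11 antiviral effectors, but for 2 of the 7 GTPases. Mx2 was at 11.84 against 10.82 to 11.28, Isg15 at 12.20 against 11.16 to 11.70 and Irf7 at 12.32 against 11.28 to 11.52, while Gbp2 was at 12.68 and Gbp5 at 10.36, inside the range of the group. Cxcl10, a chemokine that both kinds of interferon induce, was at 10.21 against 8.28 to 9.20. Cxcl9 was at 8.87 against 9.56 to 9.77, the lowest of all 23 rats, Ifng was not well above background, and the mean of the T and NK cell markers was 8.77 against 8.94 to 9.72. Over all other 21 arrays, the number of members that were highest in a rat's group ran from 0 to 14. Between the exposed rats numbered 4, 22 members were highest in both, 17 on D0 only and 6 on D28 only.

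Without exposed replicate 4, the members had a median of 0.064 on D28, with 30 above and 18 below 0 (49.2% of all genes above). Usp18 still lay apart without overlap, as did 0.968% of all genes upwards and 0.716% downwards, at 0.54 with a limma adjusted p of 0.103.

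**Figure D4:**
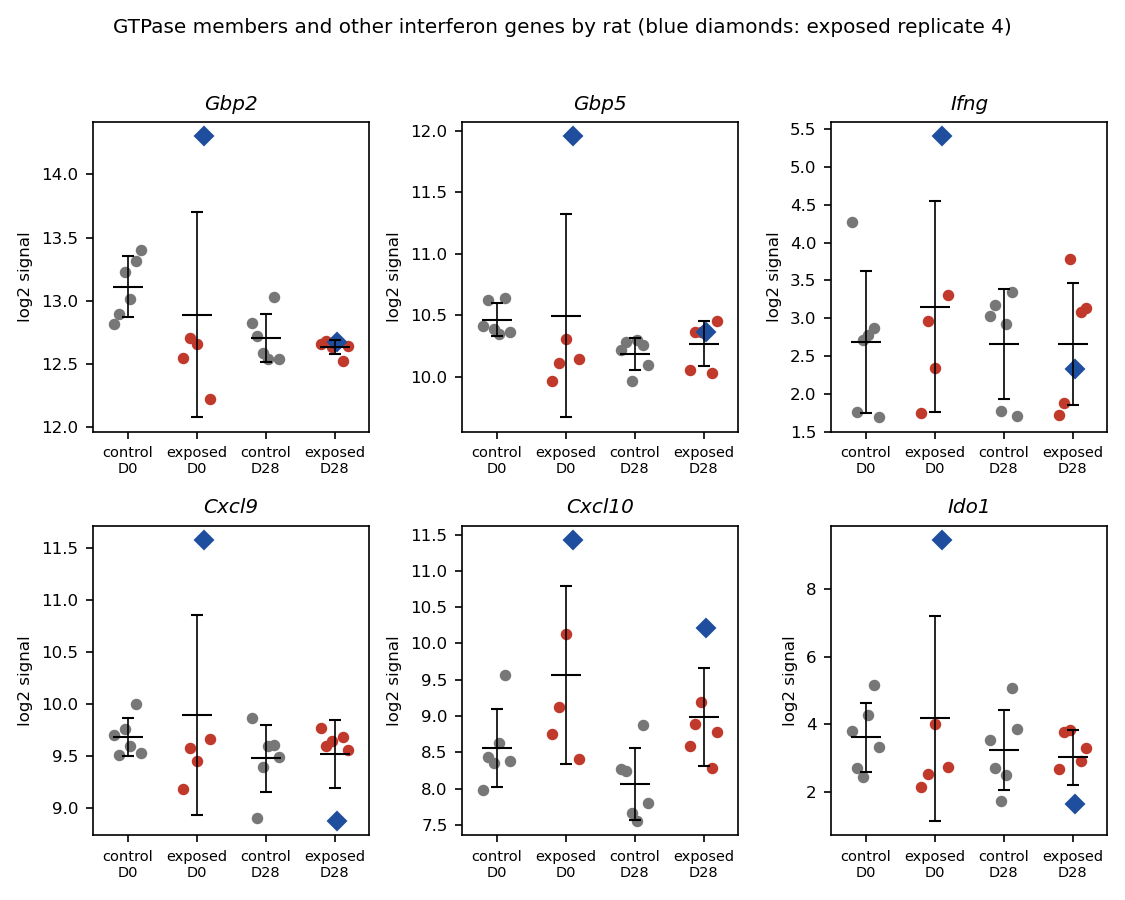
Log2 quantile normalised signal of Gbp2, Gbp5, Ifng, Cxcl9, Cxcl10 and Ido1 in every rat by group, with the group mean and SD (bars) and replicate 4 of the exposed rats as diamonds. The diamond on D0 is the highest exposed point in all 6 panels, while the diamond on D28 is the highest exposed point for Cxcl10 and the lowest for Cxcl9 and Ido1. Ifng and Ido1 were not well above background in any exposed rat on D28.

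Values within slides differed. On D0, the median of the members was 0.53 on the slide that held exposed replicate 4 (45 of 48 above 0) and from -0.024 to 0.033 on the other 3 slides with both groups. On D28, it was -0.064, 0.19 and 0.30 on the 3 slides with both groups. Mx1 was higher in the exposed animals on all 7 of these slide and day pairs, from 0.051 to 0.99, whereas Irf7 ran from -0.16 to 0.77 on D0 and from -0.022 to 0.92 on D28. Each pair rests on 1 or 2 rats a group.

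Genes upstream of the members were listed as well. Of the 9 interferon genes tested out of 13 listed, none was called on either day, at medians of 0.15 and 0.040. Only Ifna4 and Ifnk were well above background on every array, and Ifna2, Ifna5, Ifnb1 and Ifng were so on a minority. The interval of the difference lay within 1.5-fold for 1 of the 9 on D0 and for 2 on D28. The lack of calls therefore cannot show that these genes were unchanged. Ifnk, an interferon of epithelia, had mean levels of 6.46 without and 6.86 with exposure on D0 (0.40 ± 0.27), and 6.25 and 6.76 on D28 (0.51 ± 0.25). Of the 14 receptor and JAK-STAT genes tested out of 15, none was called, and Ifnar1 differed by 0.25 ± 0.16 and 0.26 ± 0.15 and Ifnar2 by 0.072 ± 0.13 and -0.014 ± 0.12. Ifngr2, the signalling chain of the interferon gamma receptor, differed by 0.32 ± 0.11 on D0 (limma adjusted p = 0.159) and 0.12 ± 0.11 on D28.

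Of the 15 genes tested out of 17 for sensing upstream of interferon, 1 was over-expressed on both days. Over all genes, 1.09% were called higher on D0 and 0.486% on D28. The gene called was Tmem173, which encodes STING, the adaptor that passes on the presence of DNA in the cytosol. On D0, control rats ran from 8.60 to 8.98 and the exposed rats had 10.02, 9.92, 9.80, 9.66 and 9.59 (0.96 ± 0.15, FC 1.95, limma adjusted p = 0.000884). The groups did not overlap, which was so for 1.94% of all genes upwards. On D28, control rats ran from 8.18 to 8.90 and exposed rats from 8.86 to 9.84, with a slight overlap (0.76 ± 0.14, FC 1.69, limma adjusted p = 0.00992). Of the 35 other interferon-inducible genes tested out of 36, none was called, at medians of 0.046 and 0.092. Ifi30, a thiol reductase of lysosomes, passed the adjusted p but not the FC limit on both days (0.44 ± 0.097 and 0.41 ± 0.093, limma adjusted p = 0.0125 and 0.0287), and Lgals3bp did so on D0 (0.49 ± 0.13, limma adjusted p = 0.0448).

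Markers of cell types shifted between the groups as well. The mean of the 10 monocyte and macrophage markers tested ran from 8.36 to 8.63 in control and from 8.74 to 9.08 in exposed rats at the end of exposure, and from 8.16 to 8.70 and 8.51 to 8.85 on D28. On both days 8 of the 10 were above 0, with Marco well above background on only 2 arrays. Of all genes, 49.9% were above 0 on D0 and 48.9% on D28. The 7 type II pneumocyte markers were all above 0 on D0 (median 0.24) and 6 of them on D28 (0.11). Below 0 on both days were all 5 type I pneumocyte markers (medians -0.22 and -0.20) and all 6 endothelial markers (-0.16 and -0.33). So were all 4 cardiac muscle markers tested (-0.35 and -0.40), though 1 of them, Nppa, was well above background on no array. Myl7 was called lower on both days, as were 160 of all 23030 genes on D0 and 62 on D28.

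The 6 plasmacytoid dendritic cell markers, a cell type that makes much type I interferon, had means of 7.88 to 8.33 in control and 7.88 to 8.23 in exposed rats on D0, and of 7.81 to 8.42 and 7.97 to 8.22 on D28, which overlapped on both days. Their medians were 0.015 and -0.022, and Siglech was well above background on 20 arrays. On D0, 1 of the 6 passed the adjusted p downwards but not the FC limit (limma adjusted p = 0.00887), as 310 of all 23030 genes passed that p downwards. Without overlap, 1 of the 6 lay below the control rats on D0, as did 2.37% of all genes. Medians of the T and NK cell markers were -0.18 and -0.21, with 2 and 4 of 11 above 0. Those of the B and plasma cell markers were -0.053 and 0.080 (3 and 4 of 7). Neutrophil markers had medians of -0.044 and -0.19 (3 and 2 of 8), with Mpo well above background on 6 arrays and Ngp on 10. The part of these cells in the members' levels was not tested.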

How the data were processed

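Total RNA was hybridised to Agilent rat arrays in 1 colour, and the deposited scanner files hold intensity values per spot, which the authors read with Feature Extraction (version 11.0.1.1 in the submitters' processing notes and on 22 arrays, 12.0.1.1 on 1 by its header). The deposited value table holds quantile normalised signals of the same arrays on a linear intensity scale and was used as an alternative. For the exposed D28 arrays, 1 label field reads D0 while the title and description give D28, which was used.

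The arrays held 45598 probes, and spots flagged as outliers were left out. A probe was kept where at least 5 arrays had it brighter than the 95th percentile of negative control spots (40418 probes). The processed signals of the kept probes were put on the log2 scale and quantile normalised between arrays. Kept probes with a gene name (32416) were then averaged per gene name (23030 genes). A member with several probes is their mean. Among the 14 such members, the probes' differences had unlike signs for Mx2 and Parp12 on D0 and for Dtx3l, Ifi44l, Igtp and Rsad2 on D28. One linear model over all 23 arrays (4 group means, 19 residual degrees of freedom) was fitted with limma 3.58.1 in R 4.3.3, with empirical Bayes moderation and Benjamini-Hochberg adjustment over all genes. The fit was tested on simulated data. The number of arrays limits the precision.

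Members and lists were chosen with earlier results of these data known, so their counts and medians describe the members and carry no p of their own. Values by rat are given for Mx1, Irf7, every called member and the 3 members with the smallest p in a comparison with fewer than 3 calls, and other members by role with up to 3 of the greatest differences. Genes named for exposed replicate 4, and Gbp5, were chosen after their values were seen. No batch term was in the model, since the batches that the study corrected are not named in the sources used here. Alternatives were the 75th percentile scaling, normexp background correction, the deposited table, a stricter filter or none on dim probes, the brightest probe of a gene, the slide or replicate number as a block, array weights, an intensity trend with robust moderation, only the arrays compared, no FC limit, and each array left out in turn. Leaving out replicate 4 of both exposed groups together was added after seeing the data.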

Additional observations from a re-analysis of the deposited data

Results flagged for a closer look

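A value was picked out where the highest or lowest rat of a group lay further from its nearest neighbour, as a share of the group's whole range, than Dixon's 95% limit for its number of rats. Chance flags about 1 in 20 independent groups. The members moved together from rat to rat, so the share below cannot be read as an excess over chance. Of the 192 sets of a member in a group, 16 (8.33%) passed. Replicate 4 of the exposed rats on D0 accounted for 7 of them as the highest rat, with shares of 0.773 for Isg20, 0.742 for Zbp1, 0.760 for Isg15, 0.770 for Gbp2, 0.829 for Gbp5, 0.738 for Irgm and 0.762 for Ifi47. The same rat was highest in the mean of all members (0.711) and of the GTPases (0.864).

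Among the exposed rats on D28, replicate 4 was highest for Irf7 (0.769) and the mean of the Isg15 system (0.645), replicate 6 for Trim25 (0.665) and replicate 5 for Irgm (0.652), and replicate 5 was lowest for Gbp2 (0.726). Among the control rats on D28, replicate 6 was lowest for Ifit3 (0.692), Eif2ak2 (0.710), the mean of the antiviral effectors (0.738) and that of the Isg15 system (0.721), and highest for Ifi44 (0.774). Control replicate 2 on D28 was highest for Mx1 (0.653) and Slfn3 (0.655). Control replicate 4 on D0 was lowest in the mean of all members (0.670) and of the Isg15 system (0.710).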

How the results depend on the processing

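Of 1073 values computed under other settings, 90 lost a call or a count of calls and 6 single values turned direction (below). Most of the 1073 had no call to lose. All 90 concern Usp18 on D28 and Oas1i in control rats, each entered as the gene and as the count of calls. Usp18 lost its call in 16 of the 23 fits without 1 array and in 7 of the 13 other settings. For Oas1i it was 16 of 23 and 6 of 13. Medians of the members moved by less than the spread between rats, yet turned sign in 2 settings on D0 and 11 for the difference between the effects, which ran from -0.069 to 0.11. The median of the members ran from -0.0080 to 0.17 on D0 and from 0.058 to 0.14 on D28 when 1 array was left out, and from -0.0080 to 0.12 and 0.061 to 0.10 under the other settings. Usp18 on D28 kept its direction throughout, but the count of members called higher fell to 0 under the 75th percentile scaling, normexp, the deposited table, array weights, the arrays of D28 alone, and without replicate 4 of both exposed groups. Leaving out 1 array gave 0 to 1 such calls (log2 difference 0.54 to 0.66, limma adjusted p = 0.0223 to 0.103). The 16 arrays whose loss ended the call were control replicates 1, 3, 5 and 6 and exposed replicates 1, 2 and 3 on D0, and control replicates 2, 3, 4 and 6 and exposed replicates 1, 3, 4, 5 and 6 on D28. Oas1i in control rats likewise fell to 0 calls under the 75th percentile scaling, normexp, the slide as a block, array weights and the control arrays alone, and to 0 to 1 calls without 1 array (log2 difference -0.79 to -0.60, limma adjusted p = 0.0171 to 0.133). Its call ended without control replicates 1, 2, 3, 5 or 6 or exposed replicates 1, 2 or 5 on D0, and control replicates 2, 3, 4 or 6 or exposed replicates 1, 2, 5 or 6 on D28. The cause of these losses was not tested.

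Correlations of same-numbered exposed and control rats ran from -0.22 to -0.12 on D0 and from -0.17 to 0.46 on D28. They were not set against those of rats with unlike numbers, so they cannot show whether the numbers pair the rats. With the replicate number as a block, Usp18 and Oas1i kept 0.61 and -0.69 but lost their calls (limma adjusted p = 0.105 and 0.0658), which left 0 members called in all 4 comparisons, and the medians were 0.082 on D0 and 0.095 on D28.

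Mx1 between control rats of the 2 days (-0.026) ran from -0.10 to 0.017 without 1 array, and turned to 0.011 with the deposited table, 0.032 with array weights, 0.017 without control replicate 2 on D0 and 0.016 without control replicate 4 on D28. Its difference between the effects (0.082, from -0.087 to 0.24 without 1 array) turned to -0.063 without exposed replicate 5 on D0 and -0.087 without exposed replicate 4 on D28. The count of all genes called went from 412 to 221 on D0 and from 174 to 94 on D28 with normexp, to 42 with the arrays of D28 alone, and to 659 and 303 with no FC limit. The 7 genes called for the difference between days became 14, 13 and 12 with normexp, the filter on well measured probes and the intensity trend, and 22 without replicate 4 of both exposed groups. Leaving out 1 array gave 111 to 203 calls on D28, 87 to 198 in control rats and 6 to 11 between days. The fit of the arrays compared alone gives no value for the difference between days, and Ifit1 has none under the stricter filter.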
